A study of Homo sapiens with 2 samples.

Results

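The clustered protocadherin locus on 5q31 held 23 of the 45924 summits that an antibody against ZMYND8 gave in parental MDA-MB-231 mammospheres, and none of the 385 summits from ZMYND8 knockout spheres. At the genome-wide density of the knockout list a stretch of this length would hold 0.0938 summits. The absence of knockout summits therefore does not set the locus apart. A summit is the position of highest signal within a called peak. The locus was chosen with earlier results of these data known. Its members are every summit between 140160000 and 140900000 of chromosome 5 in hg19, taken by position alone. Within this span the alpha cluster was taken as 140160000 to 140392000, the beta cluster as 140420000 to 140630000 and the gamma cluster as 140700000 to 140900000. The gamma cluster held 12 summits, the beta cluster 5 and the alpha cluster 4, and the other 2 lay between beta and gamma. The summits were thus most crowded in the gamma region, whose ends may reach into neighbouring genes. Nearly all of the summits had low or middling scores.

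The study ran chromatin immunoprecipitation and sequencing (ChIP-seq) for ZMYND8, a chromatin reader protein, in spheres of MDA-MB-231, an established triple-negative breast cancer line. There was 1 library from wildtype (parental) cells and 1 from cells with the gene knocked out, both grown as mammospheres in MammoCult medium and precipitated with the same antibody. Whether the knockout is a clone or a pool is not given in the sources used here. Read depth is not given either, and a summit list carries no transcript levels, so neither the labelled line nor the loss of ZMYND8 could be checked. With 1 library per genotype nothing here has a replicate check, and all intervals are 95% intervals that cover counting error only.

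Clustered protocadherins are cadherin-like adhesion proteins, best known from neurons, where each cell uses its own small set of them to tell itself from its neighbours. In the alpha and gamma clusters a row of variable exons, each with its own promoter, is spliced to constant exons shared by the whole cluster, whereas each beta gene is a complete exon of its own. Promoter choice is known to involve the architectural protein CTCF, cohesin, distal enhancers and DNA methylation, and most of the promoters share a conserved element with the core CGCT. The last alpha and gamma genes, called C-type (PCDHAC1, PCDHAC2, PCDHGC3, PCDHGC4 and PCDHGC5), are used more steadily across neurons than the others.

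RefSeq (GRCh38.p14) lists 53 protein-coding genes in the family, 15 in alpha, 16 in beta and 22 in gamma. In that order alpha runs from PCDHA1 to PCDHA13 and ends with PCDHAC1 and PCDHAC2, beta from PCDHB1 to PCDHB15, and gamma from PCDHGA1 to PCDHGC5 with the A and B types interleaved. The protein-coding neighbours in the same order are ZMAT2 before the locus, SLC25A2, a mitochondrial carrier, and TAF7, a TFIID subunit, between beta and gamma, and DIAPH1, a formin, after it. No annotation of hg19 was used here, so no summit was assigned to a gene, and the ends of each region may reach into such neighbours.

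Promoter windows, from 250 bases before to 50 bases after a transcript start, were matched by symbol for 47 of the 53 genes, with 52 windows because some genes have more than 1 start. PCDHA3, PCDHA13, PCDHB6, PCDHB11, PCDHGA12 and PCDHGC5 were not matched. The stretch from 110 to 11 bases before the start is printed for the first and last variable gene of each cluster with an entry. It is also printed for the C-type genes with an entry. Capitals mark each CGCT, and whether the rest of the conserved element surrounds it was not checked. The sequences are from RefSeq and their positions are in GRCh38.p14, so they cannot be set against the hg19 positions of the summits.
PCDHA1, chr5:140786030-140786129, plus strand: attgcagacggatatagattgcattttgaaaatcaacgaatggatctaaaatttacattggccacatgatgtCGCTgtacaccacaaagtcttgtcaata
PCDHA12, chr5:140875198-140875297, plus strand: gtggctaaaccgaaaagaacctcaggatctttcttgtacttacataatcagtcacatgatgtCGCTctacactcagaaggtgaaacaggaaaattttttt
PCDHAC1, chr5:140926189-140926288, plus strand: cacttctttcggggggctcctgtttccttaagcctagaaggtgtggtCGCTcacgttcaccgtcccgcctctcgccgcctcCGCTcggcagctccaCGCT
PCDHAC2, chr5:140966366-140966465, plus strand: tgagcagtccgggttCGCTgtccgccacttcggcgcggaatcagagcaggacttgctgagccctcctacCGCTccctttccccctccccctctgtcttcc
PCDHB1, chr5:141051264-141051363, plus strand: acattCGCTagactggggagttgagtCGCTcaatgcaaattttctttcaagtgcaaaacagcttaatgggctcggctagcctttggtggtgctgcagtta
PCDHB15, chr5:141245285-141245384, plus strand: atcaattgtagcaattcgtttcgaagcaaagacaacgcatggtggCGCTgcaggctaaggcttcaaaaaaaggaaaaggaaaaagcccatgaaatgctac
PCDHGA1, chr5:141330404-141330503, plus strand: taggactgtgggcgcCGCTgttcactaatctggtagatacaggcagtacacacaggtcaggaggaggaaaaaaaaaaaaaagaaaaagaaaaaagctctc
PCDHGA11, chr5:141420941-141421040, plus strand: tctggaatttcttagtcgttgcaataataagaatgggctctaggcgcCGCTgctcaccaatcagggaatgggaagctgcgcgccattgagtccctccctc
PCDHGC3, chr5:141475856-141475955, plus strand: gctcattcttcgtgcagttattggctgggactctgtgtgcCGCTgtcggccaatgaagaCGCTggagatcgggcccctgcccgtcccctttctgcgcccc
PCDHGC4, chr5:141484920-141485019, plus strand: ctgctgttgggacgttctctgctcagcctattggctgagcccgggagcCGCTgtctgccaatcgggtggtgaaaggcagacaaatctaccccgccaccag
All 10 stretches hold CGCT. These letters alone do not show the conserved element, since 27.5% of all promoters held them in the same stretch. PCDHAC1 holds it 3 times, PCDHAC2, PCDHB1 and PCDHGC3 hold it 2 times each, and the other 6 hold it once.

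Of the 52 windows 51 held CGCT on either strand (98.1%), against 70% of 35116 promoters of the same length in the table. The exception was PCDHA9. On the gene's own strand and within the printed stretch, 43 of 52 windows held it (82.7%), against 27.5% of all promoters. By cluster this was 12 of 13 windows in alpha, 12 of 14 in beta and 19 of 25 in gamma. The median start of a match was at −60.5 bases relative to the transcript start. The fixed pattern searched for CTCF, AGGNGGC on either strand, was in 4 of the 52 windows (7.69%) and in 35.9% of all promoters. A CTCF site can differ from this pattern, so the low share does not show that these promoters lack such sites. The printed stretch and this comparison were chosen after the match positions had been seen, and a match is a description of the letters only.

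**Figure D1:**
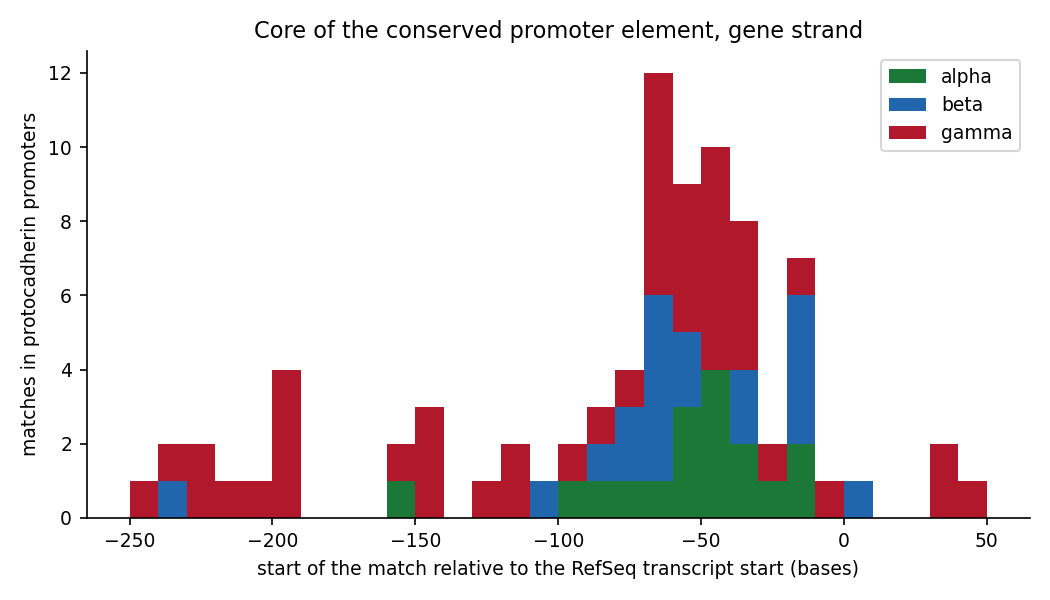
Start of each CGCT match on the gene strand, in bases from the RefSeq transcript start, over 52 promoter windows of clustered protocadherins, stacked by cluster. Most matches of all 3 clusters lie between 110 and 11 bases before the start; windows of genes with 2 starts can overlap and share matches.

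CpG dinucleotides, the sites of DNA methylation, were fewer in these windows than in promoters at large. The median was 7.50 per window in the family and 14 over all promoters. The 5 windows of C-type genes, which come from 4 genes because PCDHGC5 has none and PCDHGC4 has 2 that overlap, held 15 to 27. Their median was 23.0, and that of the other 47 windows was 7. By cluster the medians were 7 in alpha, 7.50 in beta and 10 in gamma.

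The summits themselves are given next, cluster by cluster, with the authors' score, a −log10 p or q value that ranks summits within a list. The alpha cluster had summits at 140174633 (score 4.71), 140182977 (3.79), 140209426 (4.71) and 140346564 (1.45). The first 3 lay within the first 50 kb of the region, in a span of 34.8 kb. The fourth lay 137 kb further on, and 97.6% of the parental list scored higher than it. From that summit to the first one of beta there was a stretch of 177 kb with none, the longest in or beside the locus. Thus 314 kb between the third alpha summit and the first beta summit held only the summit of score 1.45.

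The beta cluster had summits at 140523643 (score 3.79), 140559718 (2.14), 140590096 (2.14), 140616252 (3.79) and 140621542 (3.79). The first 104 kb of the beta region held none. The summits lay at least 5290 bp apart, with a median gap of 28.3 kb. None reached the scores seen at either end of the gamma region (6.70 and 4.71).

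Between beta and gamma, in the span where RefSeq order places SLC25A2 and TAF7, lay summits at 140683680 (score 2.14) and 140696929 (3.79). The second was 3071 bp before the border of the gamma region. Together with the first 2 gamma summits it formed a group of 3 within 4.03 kb.

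The gamma region opened with its highest scoring summit, at 140700264 (score 6.70), only 264 bp inside the border. No gene was assigned to it, and so close to the border it may lie in a neighbour such as TAF7. A summit of score 3.79 followed 696 bp later, at 140700960. A second pair, 386 bp apart, lay at 140729887 and 140730273, each with a score of 3.79. Summits of score 4.71 lay at 140741275 and 140744083, so that the first 50 kb of gamma held 6 of its 12 summits. The rest of the region was filled more thinly, with 2 summits in each further 50 kb. These lay at 140793387 (3.79), 140799450 (3.79), 140807460 (2.93), 140821565 (2.93), 140871614 (2.93) and 140895753 (4.71). The last, near the far border, may likewise lie in a neighbouring gene.

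**Figure D2:**
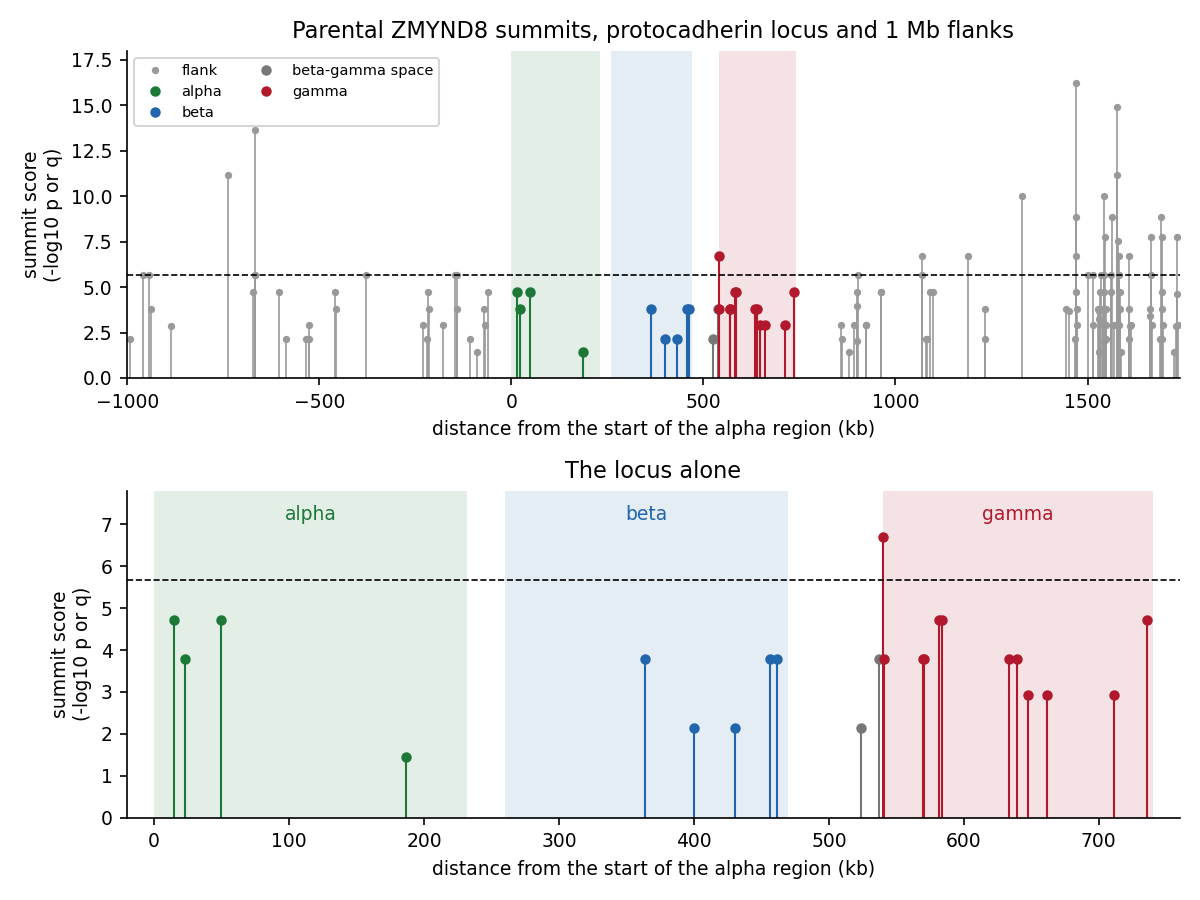
Parental summits by distance from the start of the alpha region (kb) and by the authors' score (−log10 p or q), over the locus with 1 Mb flanks (top) and over the locus alone (bottom). Shading marks the alpha, beta and gamma regions and the dashed line the lowest score of the highest scoring 25% of the list (5.68). Of the 23 summits in the locus only that at the start of the gamma region (6.70) stands above the line.

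Density was lowest in alpha and highest in gamma. Alpha held 17.2 summits per Mb (exact Poisson interval 4.70 to 44.1), beta 23.8 (7.73 to 55.6) and gamma 60 (31.0 to 105). Chromosomes 1 to 22 and X together held 15.1 per Mb and chromosome 5 held 16.0. Alpha and beta therefore had densities whose intervals hold that of the genome, and the interval of gamma lay above it. The intervals of both flanks and of the locus as a whole, given below, lay above it too, so this is not particular to gamma.

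Gamma was 3.48 times as dense as alpha (exact conditional interval 1.05 to 14.8) and 2.52 times as dense as beta (0.826 to 9.13). Beta was 1.38 times as dense as alpha (0.297 to 6.96). Only the first of these intervals leaves out 1, narrowly. With summits at most 1 kb apart counted as 1 site, gamma held 10 sites and its ratio to alpha was 2.90 (0.836 to 12.7). Neighbouring summits are not independent, so these intervals are too narrow, and they are 3 of 13 ratios computed between regions.

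Against the 1 Mb to either side, the locus as a whole was close to its left and sparser than its right flank. The locus held 31.1 summits per Mb (19.7 to 46.6), the left flank 31.0 (21.1 to 44.0) and the right flank 87.0 (69.7 to 107). Gamma lay between the flanks, at 1.94 times the left (0.905 to 3.88) and 0.690 times the right (0.343 to 1.27), and both intervals hold 1. Alpha was 0.556 times as dense as the left flank (0.143 to 1.57) and 0.198 times as dense as the right (0.0528 to 0.526). Beta was 0.768 times the left (0.233 to 1.99) and 0.274 times the right (0.0867 to 0.663). By these intervals, which treat summits as independent, alpha and beta were sparser than the right flank of 1 Mb. They were not distinguishable from the left at these counts. The difference depends on the far part of the flanks and on counting crowded summits singly. Against both flanks cut to 500 kb the ratios were 0.466 (0.121 to 1.30) for alpha and 0.643 (0.197 to 1.64) for beta, and both intervals hold 1. With summits at most 1 kb apart counted as 1 site, the right flank held 53 sites, alpha 4 and beta 5. Against both flanks of 1 Mb the ratios were then 0.442 (0.118 to 1.18) for alpha and 0.610 (0.193 to 1.49) for beta. Both of these intervals also hold 1.

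The right flank was uneven. The 500 kb next to gamma held 21 summits (42.0 per Mb) and the 500 kb beyond held 66 (132 per Mb), where the highest score was 16.21, at 141628896. The first summit to the right of the locus lay at 141018147, 118 kb beyond its end, and the last one to the left at 140098808, 61.2 kb before its start. The stretches without a summit across the borders of the locus were thus 75.8 kb on the left and 122 kb on the right. Stretches of this size were not particular to the borders, since the longest were 177 and 137 kb within the locus, 150 kb within the left flank and 116 kb within the right flank.

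**Figure D3:**
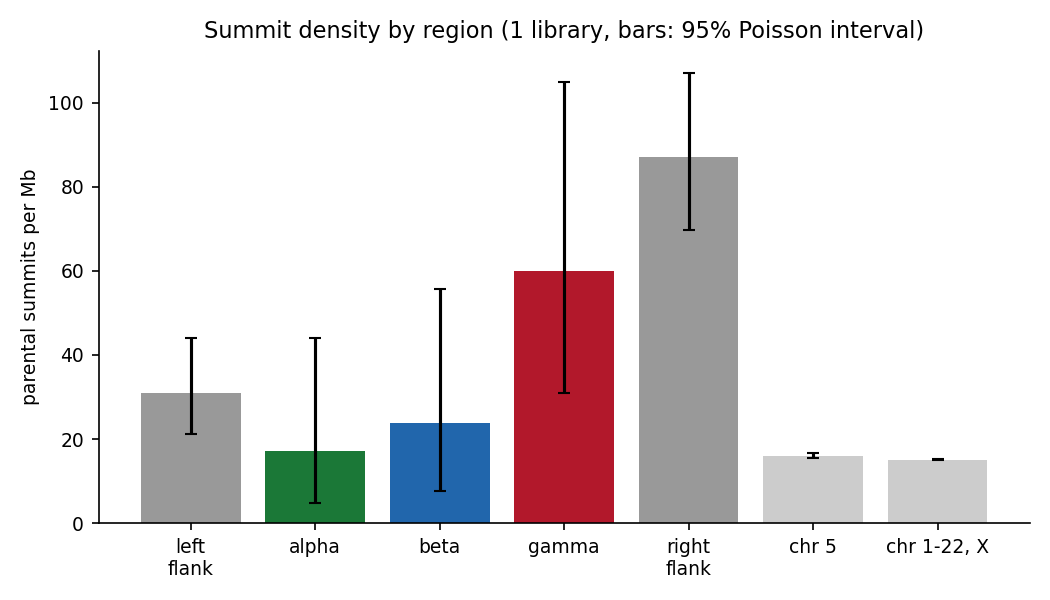
Parental summits per Mb in each flank, each cluster, chromosome 5 and chromosomes 1 to 22 and X together; bars show counts from 1 library and error bars exact 95% Poisson intervals. Gamma (60 per Mb) stands between the left flank (31.0) and the right flank (87.0), and alpha (17.2) and beta (23.8) stand near the genome (15.1).

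Set among all 15169 windows of 200 kb on chromosomes 1 to 22 and X, gamma was in the upper part of the range. A window held a median of 1 summit, and 47.6% of windows held none. With 12 summits per 200 kb, gamma was matched or exceeded by 6.59% of windows. The density of beta was matched or exceeded by 19.4% and that of alpha by 23.9%. On chromosome 5 alone the shares were 7.85%, 21.5% and 25.9%. Among windows with at least 1 summit they were 12.6% for gamma, 37.0% for beta and 45.6% for alpha. Over all windows, the density of the left flank was matched or exceeded by 13.7% and that of the right flank by 3.49%. With only the highest scoring 25% of summits, 29.6% of windows matched or exceeded gamma. The place of gamma in the upper part of the range therefore rests on the count of all summits. Gamma held only 1 high scoring summit, too few to place it by high scores.

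**Figure D4:**
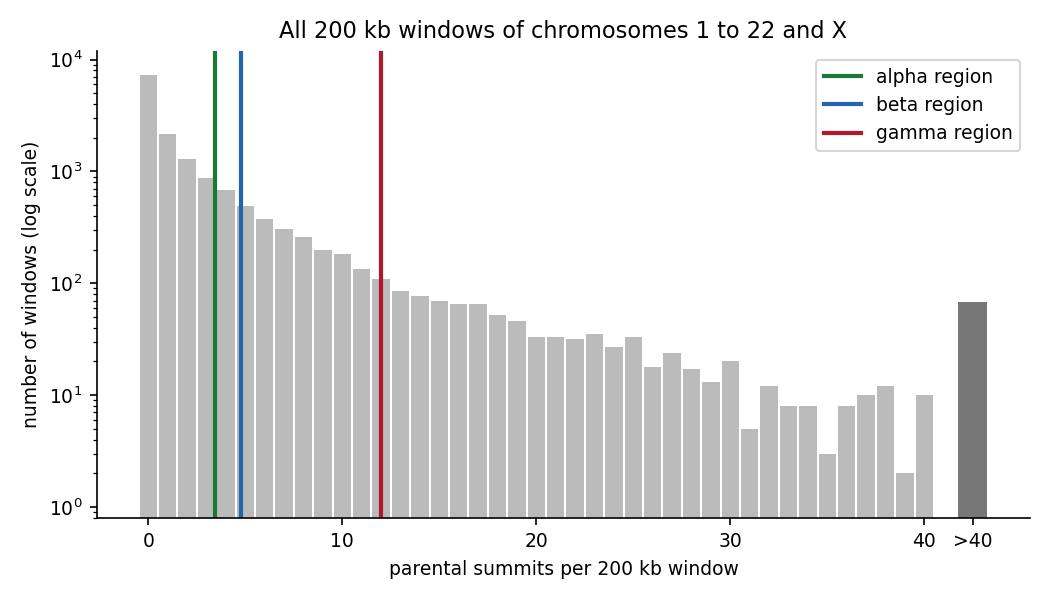
Number of 200 kb windows of chromosomes 1 to 22 and X (log axis) by their count of parental summits, with windows above 40 pooled in the dark bar. Vertical lines mark the alpha, beta and gamma regions scaled to 200 kb; gamma, at 12, is matched or exceeded by 6.59% of windows.

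High scores were scarce in the locus. The 23 scores ran from 1.45 to 6.70 with a median of 3.79, which is also the median of the whole list and of both flanks. A score of 5.68 or more, which marks the highest scoring 25% of the list, was reached by 1 of 23 summits (4.35%, exact Clopper-Pearson interval 0.11 to 21.9). With ties kept, 26.1% of the list reached it, and 36 of 118 flank summits did (30.5%, 22.4 to 39.7). By cluster it was 0 of 4 in alpha, 0 of 5 in beta and 1 of 12 in gamma. The highest flank scores were 13.63 on the left and 16.21 on the right.

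The 23 members took only 6 score values. The value 3.79 occurred 10 times, 4.71 5 times, 2.14 and 2.93 3 times each, and 1.45 and 6.70 once each. These 6 values cover 45.2% of the whole list, so the scores move in coarse steps and ties are common everywhere. A shift of 1 step, from 4.71 to 5.68, would place a member in the highest scoring 25%, and 5 members stood at 4.71. Among windows of 200 kb with 10 to 14 summits, a range chosen after the count at gamma was known, 23.2% held at most 1 such high scoring summit and the median was 3. Some windows about as full as gamma thus held as few high scores as it did, but most held more.

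Close neighbours were fewer in the locus than in the list, and no single cluster differed from the list beyond counting error. Another parental summit lay within 1 kb of 4 of the 23 (17.4%, 4.95 to 38.8), all of them in the pairs at gamma. In the whole list 41.2% of summits had such a neighbour. None of the 4 alpha summits (interval 0 to 60.2%) or 5 beta summits (0 to 52.2%) had one. In gamma it was 4 of 12 (33.3%, 9.92 to 65.1). The left flank, with nearly the density of the locus, had 11 of 31 (35.5%, 19.2 to 54.6) and the right flank 52 of 87 (59.8%, 48.7 to 70.1). The interval of the locus overlaps that of the left flank. The median gap between neighbours was 26.4 kb in alpha, 28.3 kb in beta, 11 kb in gamma, 16.5 kb in the left flank, 1.49 kb in the right flank and 5.73 kb over the whole list. Gamma was thus more closely spaced than the left flank by median gap, and alpha and beta less closely.

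**Figure D5:**
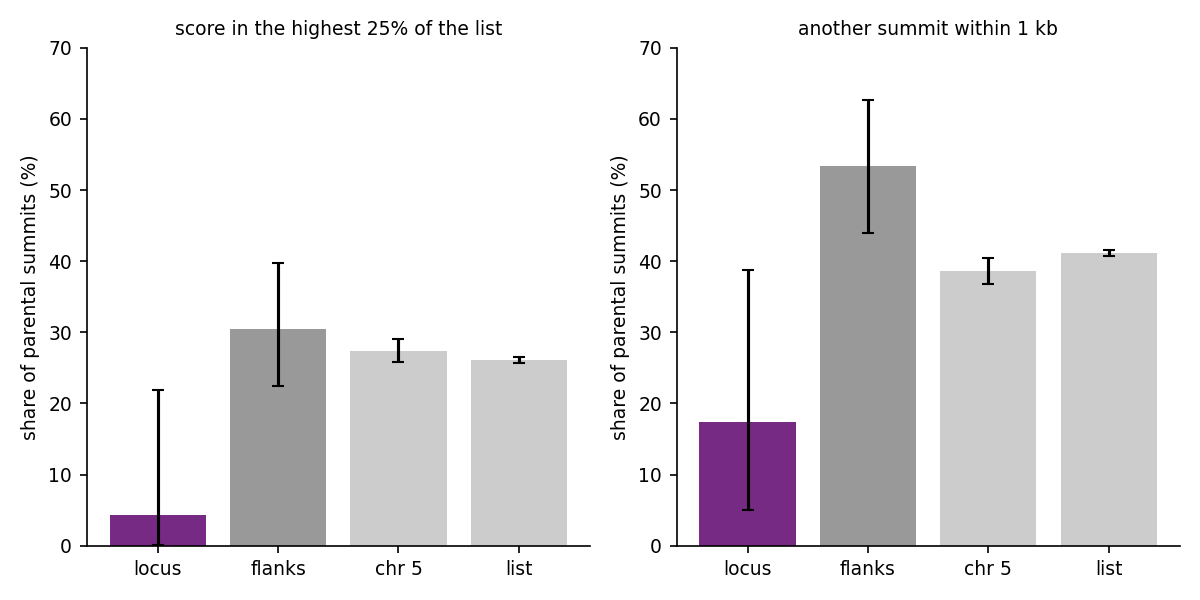
Share of parental summits with a score in the highest 25% of the list (left) and with another summit within 1 kb (right), for the 23 summits of the locus, the 118 of the flanks, chromosome 5 and the whole list; error bars are exact 95% Clopper-Pearson intervals. In both panels the locus (4.35% and 17.4%) lies below the list (26.1% and 41.2%), which its interval leaves out; on the right the left flank alone was 35.5%.

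No knockout summit lay in alpha, beta, gamma, the spaces between them or either flank. Chromosome 5 held 15 knockout summits, and those nearest to the locus were 2.25 Mb to its left, at 137910979 (knockout score 6.84), and 8.21 Mb to its right, at 149110081 (2.88). So 0 of the 23 members had a knockout summit within 200 bp, which allows a share of up to 13.0%, or within 1000 bp. Over the whole parental list the share with a knockout partner was 0.636% at 200 bp and 1.21% at 1000 bp. At the first of these shares 0.146 of the 23 members would have a partner, so a count of 0 does not tell the locus from other regions, and no difference was detectable with a knockout list of this length.

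Variable exons of the family resemble each other, and reads from near-identical stretches can be placed at either copy or lost. In the promoter windows a run of 50 identical bases was shared by PCDHB8 and PCDHB13 and by PCDHGB4 and PCDHGB5, 4 of the 47 genes. How such reads were treated is not given in the sources used here, and their part in the counts at beta and gamma was not tested.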

How the data were processed

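Summit lists from 1 parental and 1 ZMYND8 knockout library were used, with genotypes taken from the labels. Per the submitters' processing notes, Bowtie2 2.2.3, MACS2 2.0.10, Picard 1.127 and FastQC 0.11.2 were used on build hg19, with no role or setting stated. Each deposited list holds a position and a −log10 value per summit, of p or of q. Depth, control and threshold are not given in the sources used, so scores were compared within a list only.

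Positions are 1-based. Summits were counted by region, by 200 kb windows (hg19 lengths from GenomeInfoDb 1.38.1) and by distance to the knockout list. Every summit in the locus is named. Intervals are exact Poisson, conditional or Clopper-Pearson intervals at 95%, and a count of 0 was given a limit of 3 counts. Promoter letters were searched in the RefSeq table. Planned annotation of summits needs an hg19 annotation and was not done. Counting was tested on simulated lists. Software was Python 3.11.15 with scipy 1.17.1, numpy 2.4.6, pandas 2.3.3 and matplotlib 3.10.9. Members, lists and regions were chosen with earlier results of these data known. Alternatives covered score minimum, merging, flanks, borders, windows and sharing distance.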

Additional observations from a re-analysis of the deposited data

How the results depend on the processing

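No paired analysis was possible because the files hold 1 library per genotype. Of 66 alternative values for 11 results, 57 were counted as unchanged, most by lying inside the interval of the main value, and 9 lay outside it. The sharing distances were counted as unchanged without an interval. They could not have changed the count, since the knockout summit nearest to any member was 2.26 Mb away. A score of at least 5 gave the same ratios as the highest scoring 25%, so these settings are not separate checks. The ratio of gamma to the flanks, 1.02 with an interval that holds 1, has no settled direction: it fell below 1 with the right flank alone (0.690), with gamma's ends left out or all clusters narrowed by 10 kb (0.847 each) and with summits within 500 bp merged (0.982). With the highest scoring 25% of summits, or with a score of at least 5, the ratio to the flanks was 0 for alpha and for beta and 0.278 for gamma, and 29.6% of windows then matched gamma; with so few such summits in the locus, 8 further values could not be formed. Against the left flank alone gamma was 1.94 times as dense. No member reached a score of 10, which put the locus at 0 times the share of the list (6.27%). A count of 0 among 23 members allows a share of up to 13.0%, so it does not tell the locus from the list. The interval of gamma over alpha held 1 in 4 of 5 alternatives (ratios 2.65 to 3.72), that of alpha over the flanks in 3 of 10 (ratios 0 to 0.556), and that of beta over the flanks in 7 of 10 (ratios 0 to 0.768). For these the cause was not tested beyond the smaller counts. Leaving out the ends of gamma, a score of 10 and empty windows were chosen after seeing the data. Unknown depth limits every comparison of the lists.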
